A study of Mus musculus with 12 samples.

Results

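The epidermal keratinocyte genes described here are 37 genes listed by symbol, which build the skin's outer epithelium. They cover the keratins, the proteins that attach the epidermis to its basement membrane, the desmosomes, the cornified envelope and a few other genes of the tissue. Each gene was read from 1 probe set of the array, the one with the highest mean signal over all arrays among those annotated with that symbol alone. Of the 37 genes, 36 were measured in this way, out of 12393 genes on the array. The remaining gene, Dsg3, had no probe set annotated with that symbol alone and was not analysed here.

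The Affymetrix arrays came from C26 tumours, a mouse colon carcinoma line grown under the skin of the dorsal flank of Balb/c mice aged 6 weeks. All mice carried the tumour and were treated at day 8 after inoculation, at a tumour size of about 50 mm3, and all tumours were collected 48 h after treatment. The 3 groups of 4 mice received PBS, the chemotherapy drug doxorubicin in free form (Dox), or CP-Dox, doxorubicin attached to a chimeric polypeptide carrier. No group received the carrier alone, and no source used here gives the doses. Each array holds the RNA of 1 tumour, with 12 arrays in all, and the titles name the replicates as separate mice. The authors' values are RMA signals on the log2 scale, on which a difference of 1 is a 2-fold difference, and over all genes the mean of an array lay between -0.02 and 0.04 from the PBS mean.

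The epidermis is a layered epithelium that renews itself from below. Basal cells make the keratin pair Krt5 and Krt14 under the control of the transcription factor Trp63, and hold to the basement membrane through hemidesmosomes. Cells that leave the basal layer switch to Krt1 and Krt10, and in the granular layer above they make filaggrin, loricrin and small proline-rich proteins, which transglutaminases bind into the cornified envelope of the skin surface. Krt6, Krt16 and Krt17 are low between hair follicles in resting skin and are made after wounding. The keratins of stratified epithelium and the cornified envelope are not features of colon epithelium, whose keratins are Krt8, Krt18, Krt19 and Krt20, while some junction and adhesion genes of the list (Cldn1, Jup, Dsp, Itga6 and Itgb4) are made by both tissues.

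The epidermal genes were high in exactly 2 of the 12 tumours, CP-Dox replicates 1 and 3. Averaged over the 36 measured genes, the signal lay 1.92 above the PBS mean (log2) in CP-Dox replicate 1 and 2.60 above it in CP-Dox replicate 3. The same average was 0.09 in CP-Dox replicate 2 and 0.00 in CP-Dox replicate 4. It ran from -0.05 to 0.04 in the PBS tumours and from 0.02 to 0.10 in the Dox tumours. Both the basal and the differentiated layers were seen in these 2 tumours, and neither was seen in the other 10.

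Counted gene by gene, 21 of the 36 genes in CP-Dox replicate 1 and 23 in CP-Dox replicate 3 lay at least 1 above the highest PBS tumour, and 20 did so in both. Of all genes on the array, 1.92% passed that mark in replicate 1, 2.76% in replicate 3 and 1.5% in both. None of the 36 passed it in CP-Dox replicates 2 and 4, where the share of all genes was 0.686% and 1.89%, nor in any Dox tumour, where that share was 0.0403%, 0.0807%, 0.0403% and 0.371% in replicates 1 to 4. CP-Dox replicates 1 and 3 were the 2 highest arrays for 28 of the 36 genes. For 26 of the genes the other 10 arrays all stayed within 0.5 of the PBS mean. The shares of all genes for these last 2 counts were not computed, so they describe the 36 genes only. No test was made of these 2 tumours against the rest, because they stand out by the outcome itself and the labels set them apart in no way.

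**Figure D1:**
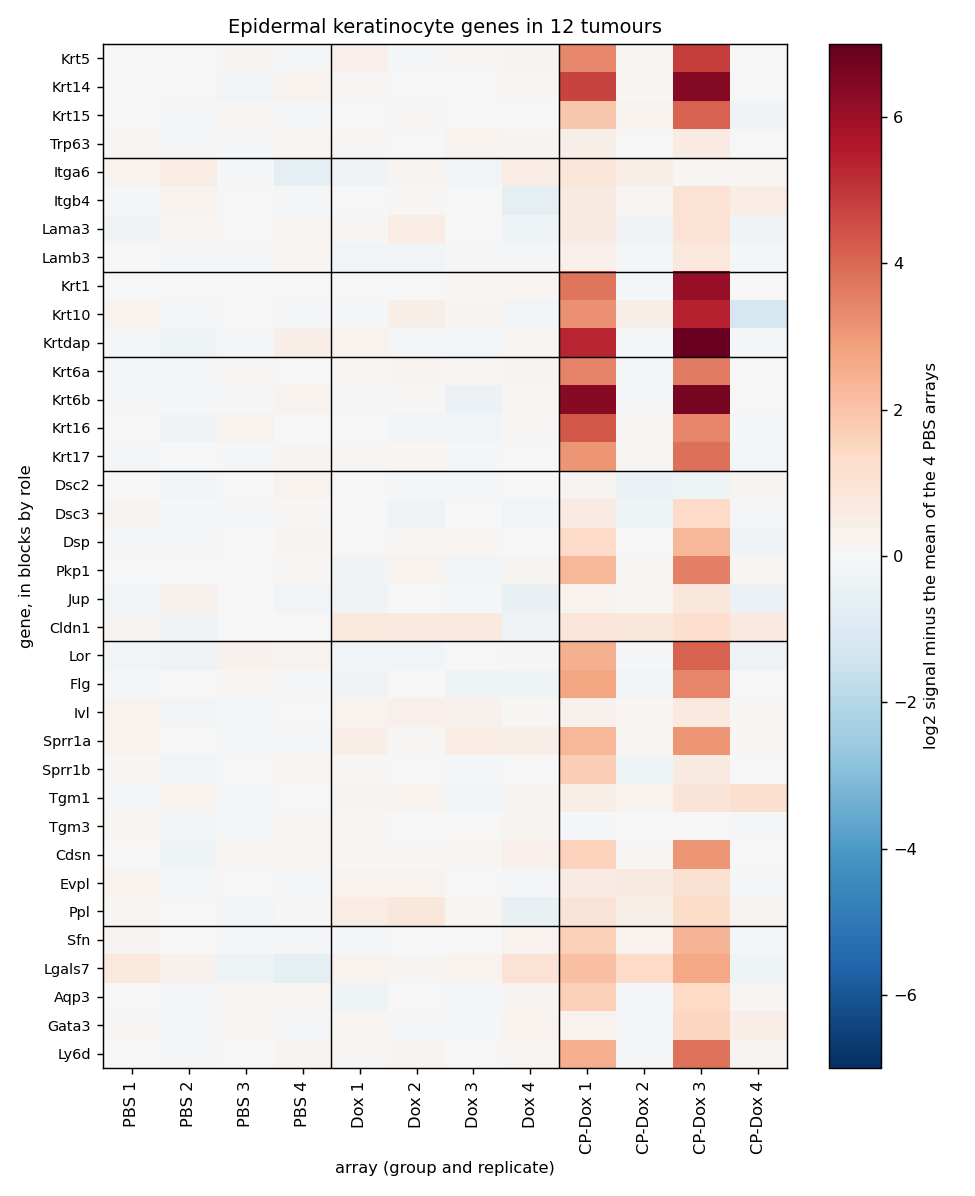
Log2 signal of each of the 36 measured epidermal genes (rows, grouped by role) in each of the 12 tumours (columns), shown as the difference from that gene's PBS mean. CP-Dox replicates 1 and 3 form 2 red columns across nearly every role, and the other 10 columns stay mostly near 0.

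In whole tumour pieces, a larger number of keratinocytes and more of these transcripts in each keratinocyte cannot be told apart. The array also gives no absolute amount, so levels are compared below only within a gene, and genes are set side by side by their differences from the PBS mean.

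Promoter sequences of 5 genes that were high in both tumours are shown to place the layers on their regulatory DNA, 1 from the basal layer (Krt14), 1 from the spinous layer (Krtdap) and 3 from the cornified envelope (Lor, Flg and Sprr1a). Each is the 250 bases before the transcription start in RefSeq on the mouse build GRCm38.p6, written 5′ to 3′ on the gene's strand. Capitals mark a TATA box (TATAAA) or an AP-1 motif (TGANTCA), the binding sequence of the Fos and Jun factors.
Krt14, chr11:100206031-100206280, minus strand: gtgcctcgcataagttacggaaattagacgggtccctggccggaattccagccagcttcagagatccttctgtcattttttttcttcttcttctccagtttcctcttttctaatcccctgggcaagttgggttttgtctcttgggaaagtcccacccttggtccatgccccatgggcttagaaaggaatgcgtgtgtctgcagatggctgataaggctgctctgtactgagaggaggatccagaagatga
Krtdap, chr7:30787655-30787904, plus strand: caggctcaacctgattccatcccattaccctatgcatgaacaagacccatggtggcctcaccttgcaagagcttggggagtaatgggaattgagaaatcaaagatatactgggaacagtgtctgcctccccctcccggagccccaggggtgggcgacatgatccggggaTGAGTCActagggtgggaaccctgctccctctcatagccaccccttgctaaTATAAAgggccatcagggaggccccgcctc
Lor, chr3:92083143-92083392, minus strand: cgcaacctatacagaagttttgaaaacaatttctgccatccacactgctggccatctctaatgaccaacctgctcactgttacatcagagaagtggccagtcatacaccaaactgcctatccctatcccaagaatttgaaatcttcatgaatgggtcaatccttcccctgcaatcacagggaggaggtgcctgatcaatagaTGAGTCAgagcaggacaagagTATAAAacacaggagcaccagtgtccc
Flg, chr3:93273296-93273545, plus strand: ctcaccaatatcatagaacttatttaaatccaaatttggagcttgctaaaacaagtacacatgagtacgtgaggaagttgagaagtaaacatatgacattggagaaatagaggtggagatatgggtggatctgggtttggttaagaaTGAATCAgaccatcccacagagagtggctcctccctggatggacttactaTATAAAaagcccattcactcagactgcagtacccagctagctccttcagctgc
Sprr1a, chr3:92485882-92486131, minus strand: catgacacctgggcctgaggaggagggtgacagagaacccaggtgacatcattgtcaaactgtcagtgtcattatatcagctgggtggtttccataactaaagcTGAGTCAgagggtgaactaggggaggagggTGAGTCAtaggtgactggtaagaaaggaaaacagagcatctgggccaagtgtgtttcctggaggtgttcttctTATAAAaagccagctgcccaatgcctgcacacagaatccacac

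The Krt14 window held neither motif. In Krtdap the TATA box began at position -30 and the AP-1 motif at -81, counted from the start. In Lor they began at -27 and -48, and in Flg at -53 and -103. Sprr1a held 1 TATA box and a pair of AP-1 motifs. Lor, Flg and Sprr1a lie on chromosome 3 with Ivl and Sprr1b, in the epidermal differentiation complex, a cluster of genes for the cornified envelope.

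Promoters of 20 of the 36 measured genes were in the table used here, and each motif was searched on both strands. AP-1 motifs stood in 6 of the 20 (30.0%: Flg, Ivl, Krtdap, Lor, Sprr1a and Sprr1b), against 6.87% of 27025 mouse promoters of the same length. TATA boxes stood in 9 (45.0%) against 13.0%. A GC box (GGGCGG), the motif of Sp1, was found in 7 of the 20 (35%) against 32.9%, and the AP-2 motif GCCNNNGGC in 2 (10%), Dsp and Gata3, against 13.6%. The presence of these letters did not follow the signals gene by gene: Ivl and Tgm3 hold a TATA box and Ivl an AP-1 motif, yet neither gene was at least 1 above the PBS tumours in any array. A match is a run of letters and no evidence of binding.

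The basal keratins were among the clearest genes. Krt14 read 5.41, 5.39, 5.22 and 5.70 in the PBS tumours and 5.52, 5.46, 5.47 and 5.57 in the Dox tumours. In CP-Dox replicates 1 to 4 it read 10.17, 5.57, 11.86 and 5.48. Replicates 1 and 3 thus stood 26.8-fold and 86.4-fold over the PBS mean, and replicates 2 and 4 lay inside the PBS range. Folds here and below are ratios of signals, and no background level was available, so for genes with a dim PBS signal, among them Krt14, Krt5, Krt1, Krtdap, Krt6b and Krt16 (all in the dimmest 40% of the array by mean), they are not ratios of RNA amounts. Krt5, the partner of Krt14, read 5.72, 5.73, 5.96 and 5.68 with PBS, 6.11, 5.71, 5.87 and 5.99 with Dox, and 9.13, 5.88, 10.63 and 5.76 with CP-Dox. Those 2 high values were 10.3-fold and 29.0-fold over the PBS mean.

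Krt15, a keratin of basal cells and of the hair follicle bulge, read 5.26, 5.20, 5.42 and 5.17 with PBS and 5.28, 5.35, 5.29 and 5.30 with Dox. With CP-Dox it read 7.14, 5.52, 9.38 and 5.02, again high in replicates 1 and 3 alone. Trp63, the master regulator of stratified epithelia, differed little on its kept probe set. It read 5.03, 4.85, 4.82 and 5.04 with PBS, 5.03, 4.95, 5.19 and 5.14 with Dox, and 5.37, 4.92, 5.54 and 4.91 with CP-Dox. Another Trp63 probe set, of lower mean signal, read 4.01 to 4.29 with PBS and 6.19, 4.20, 7.33 and 4.11 with CP-Dox, which places replicates 1 and 3 at 2.03 and 3.17 over the PBS mean.

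The genes of basement membrane attachment differed little. Itga6 and Itgb4 encode the integrin pair of the hemidesmosome, and Lama3 and Lamb3 chains of its ligand laminin. Itgb4 read 6.24, 6.62, 6.39 and 6.34 with PBS, 6.41, 6.49, 6.42 and 5.77 with Dox, and 7.01, 6.51, 7.39 and 6.93 with CP-Dox. Here replicate 4 was nearly as high as replicate 1, and replicate 2 lay inside the PBS range. Itga6 read 9.41, 9.67, 9.01 and 8.55 with PBS, 8.93, 9.34, 8.99 and 9.68 with Dox, and 9.99, 9.62, 9.27 and 9.32 with CP-Dox, so replicate 3 was no higher than the controls. Lamb3 read 4.89, 4.77, 4.77 and 4.99 with PBS, 4.65, 4.68, 4.71 and 4.80 with Dox, and 5.20, 4.76, 5.60 and 4.71 with CP-Dox. Lama3 ran from 4.95 to 5.36 with PBS and reached 5.86 and 6.23 in CP-Dox replicates 1 and 3, with a CP-Dox minus PBS difference of 0.29 ± 0.28 (SE, limma, n = 4 per group, adjusted p = 0.541). None of the 4 genes was 1 above the highest PBS tumour in any array, and their mean was 0.61 over the PBS mean in replicate 1 and 0.71 in replicate 3.

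The suprabasal genes showed the largest mean difference of the role groups in CP-Dox replicate 3, while in replicate 1 the wound keratins were larger (4.33 against 4.10). Krt1 read 5.26, 5.20, 5.22 and 5.23 with PBS, 5.24, 5.19, 5.38 and 5.34 with Dox, and 9.0, 5.16, 11.35 and 5.29 with CP-Dox. Its 2 high values were 13.6-fold and 69.4-fold over the PBS mean. Krt10, its partner, read 7.81, 7.44, 7.49 and 7.40 with PBS and 7.48, 7.94, 7.73 and 7.35 with Dox. With CP-Dox it read 10.74, 7.95, 12.94 and 6.37, so replicate 4 lay 1.17 below the PBS mean while replicates 1 and 3 lay far above it. Krtdap, a small secreted protein of differentiating keratinocytes, read 4.48, 4.26, 4.47 and 5.00 with PBS, 4.80, 4.40, 4.47 and 4.67 with Dox, and 9.87, 4.49, 11.47 and 4.47 with CP-Dox. That is 39.8-fold and 121-fold over the PBS mean in replicates 1 and 3. Over the 3 genes the mean difference from PBS was 4.10 in replicate 1 and 6.14 in replicate 3.

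**Figure D2:**
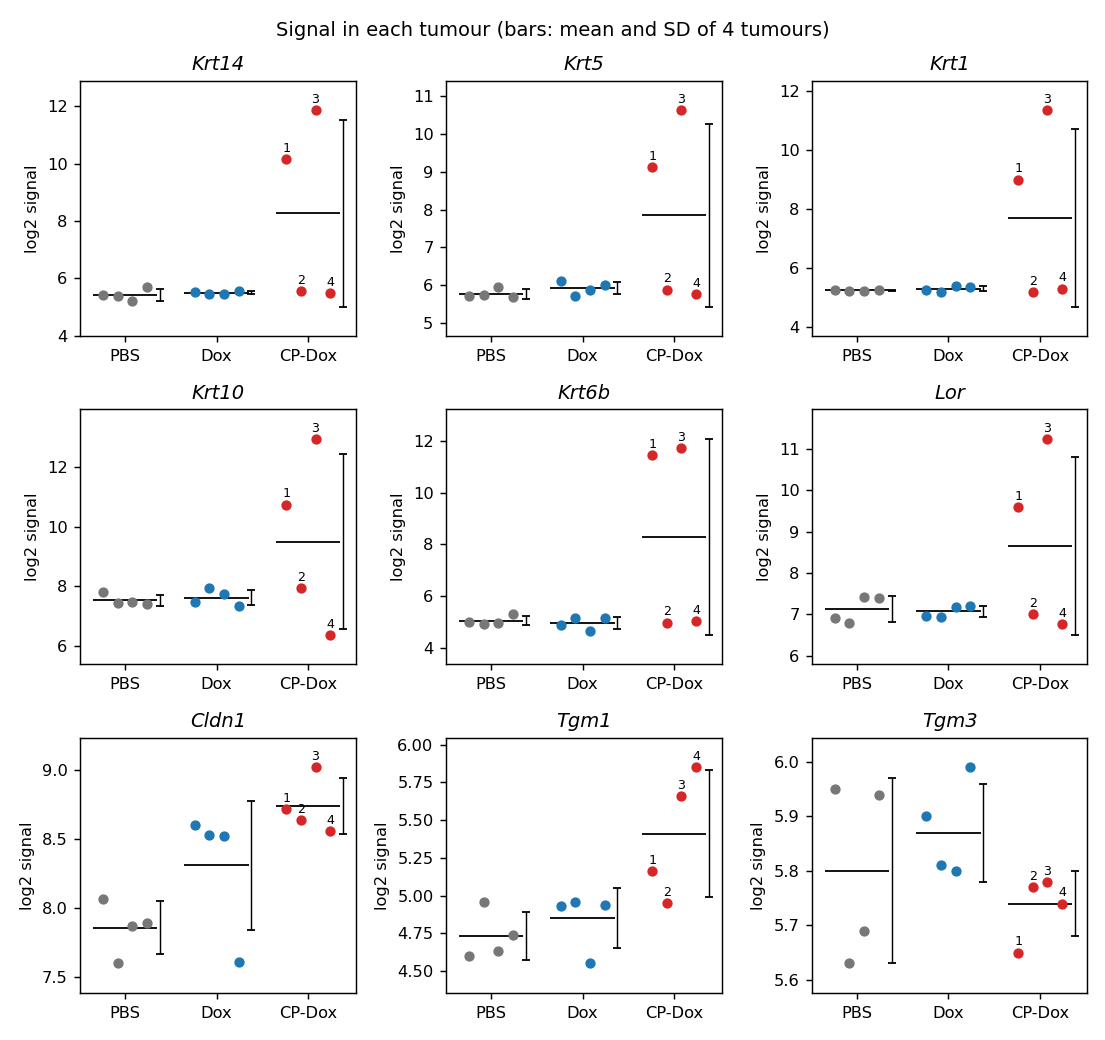
Log2 signal (vertical axis) of Krt14, Krt5, Krt1, Krt10, Krt6b, Lor, Cldn1, Tgm1 and Tgm3 in each tumour by treatment group, with the group mean as a line, the SD as an error bar and the CP-Dox tumours numbered by replicate. For the keratins and Lor, CP-Dox replicates 1 and 3 sit above every other tumour, for Cldn1 all 4 CP-Dox tumours sit above the PBS tumours, and for Tgm1 and Tgm3 the same pair is not set apart.

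The wound keratins were high in the same 2 tumours, Krt6a and Krt6b by nearly the same amount in each, Krt16 more in replicate 1 and Krt17 more in replicate 3. Krt6b read 4.99, 4.94, 4.97 and 5.33 with PBS, 4.90, 5.14, 4.66 and 5.16 with Dox, and 11.44, 4.98, 11.71 and 5.03 with CP-Dox. The high values were 83.3-fold and 101-fold over the PBS mean. Krt6a read 6.08, 6.10, 6.26 and 6.19 with PBS, 6.25, 6.37, 6.28 and 6.35 with Dox, and 9.65, 6.00, 9.77 and 6.11 with CP-Dox. Krt6a and Krt6b are near-identical copies, so their probe sets may each read both genes.

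Krt16 read 4.98, 4.80, 5.26 and 5.02 with PBS, 4.98, 4.81, 4.85 and 5.10 with Dox, and 9.36, 5.12, 8.45 and 4.86 with CP-Dox, or 20.3-fold and 10.8-fold over the PBS mean in the 2 high tumours. Krt17 read 4.40, 4.44, 4.37 and 4.68 with PBS, 4.55, 4.59, 4.34 and 4.43 with Dox, and 7.56, 4.53, 8.30 and 4.35 with CP-Dox.

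Among the desmosome genes, which rivet neighbouring keratinocytes together, Pkp1 and Dsp were high in both tumours. Pkp1, a plakophilin of suprabasal cells, read 5.79, 5.76, 5.81 and 5.91 with PBS, 5.59, 6.08, 5.65 and 6.03 with Dox, and 8.17, 5.88, 9.35 and 5.95 with CP-Dox. Dsp, the desmoplakin that ties keratins to the junction, read 5.11, 5.14, 5.28 and 5.42 with PBS, 5.27, 5.30, 5.37 and 5.27 with Dox, and 6.56, 5.22, 7.54 and 5.00 with CP-Dox. Its kept probe set showed the smallest difference of the 3 Dsp probe sets. The other two, at 4.36 or less in every PBS tumour, read 8.77 and 9.61 in replicate 1 and 10.27 and 11.05 in replicate 3.

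Jup, plakoglobin, is shared with adherens junctions of many tissues. It read 7.46, 7.94, 7.70 and 7.48 with PBS, 7.41, 7.65, 7.58 and 7.14 with Dox, and 7.87, 7.81, 8.43 and 7.24 with CP-Dox, so only replicate 3 lay above the PBS range. The desmosomal cadherin Dsc3 ran from 4.79 to 5.12 with PBS and stood at 5.49 and 6.29 in CP-Dox replicates 1 and 3, a group difference of 0.39 ± 0.28 (limma, adjusted p = 0.416). Dsc2 ran from 4.70 to 5.36 over the CP-Dox tumours and from 4.95 to 5.39 with PBS, a difference of -0.09 ± 0.15 (limma, adjusted p = 0.750). Another Dsc2 probe set, of lower signal, read 4.65, 4.34, 5.17 and 4.43 with CP-Dox. That placed replicates 1 and 3 at 0.38 and 0.91 over its PBS mean.

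The cornified envelope genes were split. Lor, loricrin, the main protein of the envelope, read 6.92, 6.80, 7.41 and 7.39 with PBS, 6.96, 6.93, 7.17 and 7.21 with Dox, and 9.60, 7.01, 11.24 and 6.76 with CP-Dox, or 5.54-fold and 17.3-fold over the PBS mean. Flg, filaggrin, which bundles keratin filaments, read 4.52, 4.62, 4.72 and 4.45 with PBS, 4.35, 4.62, 4.26 and 4.27 with Dox, and 7.33, 4.38, 7.98 and 4.52 with CP-Dox. Sprr1a, a small proline-rich envelope protein, read 6.11, 5.87, 5.83 and 5.75 with PBS, 6.35, 5.99, 6.42 and 6.33 with Dox, and 8.24, 6.03, 8.95 and 5.96 with CP-Dox. In all 3 genes the same 2 tumours were high and no other CP-Dox tumour lay above the PBS tumours.

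Cdsn, corneodesmosin, ran from 5.55 to 5.98 with PBS and reached 7.47 and 8.90 in replicates 1 and 3 (group difference 1.19 ± 0.54, limma adjusted p = 0.206). Sprr1b was higher in replicate 1, at 6.06, than in replicate 3, at 4.99, against 4.15 to 4.50 with PBS (0.50 ± 0.33, limma adjusted p = 0.377). The envelope plakins Evpl and Ppl were less distinct. Evpl ran from 5.70 to 6.09 with PBS and read 6.39, 6.44, 6.86 and 5.76 with CP-Dox (0.55 ± 0.20, limma adjusted p = 0.128), so replicate 2 was as high as replicate 1.

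Ivl, involucrin, read 4.91, 4.50, 4.63 and 4.73 with PBS, 4.94, 5.02, 5.00 and 4.77 with Dox, and 4.98, 4.80, 5.35 and 4.78 with CP-Dox, all within 1 unit of each other. The transglutaminases gave no such pattern either. Tgm1, which crosslinks the envelope, read 4.60, 4.96, 4.63 and 4.74 with PBS, 4.93, 4.96, 4.55 and 4.94 with Dox, and 5.16, 4.95, 5.66 and 5.85 with CP-Dox, with replicate 4 the highest. Tgm3 read 5.95, 5.63, 5.69 and 5.94 with PBS, 5.90, 5.81, 5.80 and 5.99 with Dox, and 5.65, 5.77, 5.78 and 5.74 with CP-Dox, with no tumour high.

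The remaining epidermal genes followed the keratins to different degrees. Ly6d, a surface protein of stratified epithelia, read 5.35, 5.17, 5.30 and 5.51 with PBS, 5.42, 5.53, 5.32 and 5.49 with Dox, and 7.89, 5.22, 9.15 and 5.52 with CP-Dox. Sfn, stratifin, an adaptor protein of keratinocytes, read 5.36, 5.15, 5.08 and 5.05 with PBS, 5.00, 5.20, 5.15 and 5.40 with Dox, and 6.81, 5.44, 7.55 and 5.04 with CP-Dox. Aqp3, the water and glycerol channel of the epidermis, read 5.75, 5.61, 5.84 and 5.90 with PBS, 5.46, 5.78, 5.66 and 5.98 with Dox, and 7.44, 5.64, 7.18 and 5.86 with CP-Dox. These 3 genes were high in the same 2 tumours.

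Lgals7, a galectin of stratified epithelia, spread widely within the groups. It read 8.79, 8.37, 7.70 and 7.41 with PBS, 8.30, 8.23, 8.33 and 9.08 with Dox, and 10.16, 9.41, 10.75 and 7.74 with CP-Dox, so replicate 2 also stood above the PBS tumours, 1.35 over their mean. Gata3, a transcription factor of suprabasal cells and the hair follicle, and of T cells too, read 5.00, 4.84, 4.97 and 4.79 with PBS, 5.02, 4.84, 4.76 and 5.16 with Dox, and 5.15, 4.74, 6.43 and 5.38 with CP-Dox. Only replicate 3 was more than 1 above the PBS tumours.

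By layer, the 8 basal genes averaged 1.60 over the PBS mean in CP-Dox replicate 1 and 2.36 in replicate 3, and the 13 genes of the differentiated layers 1.94 and 2.82. In each of the 2 tumours 3 of the 8 basal genes (Krt5, Krt14 and Krt15) and 8 of the 13 differentiated genes lay at least 1 above the highest PBS tumour. In replicates 2 and 4 the basal average was 0.09 and 0.01, and the differentiated average 0.09 and -0.02.

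**Figure D3:**
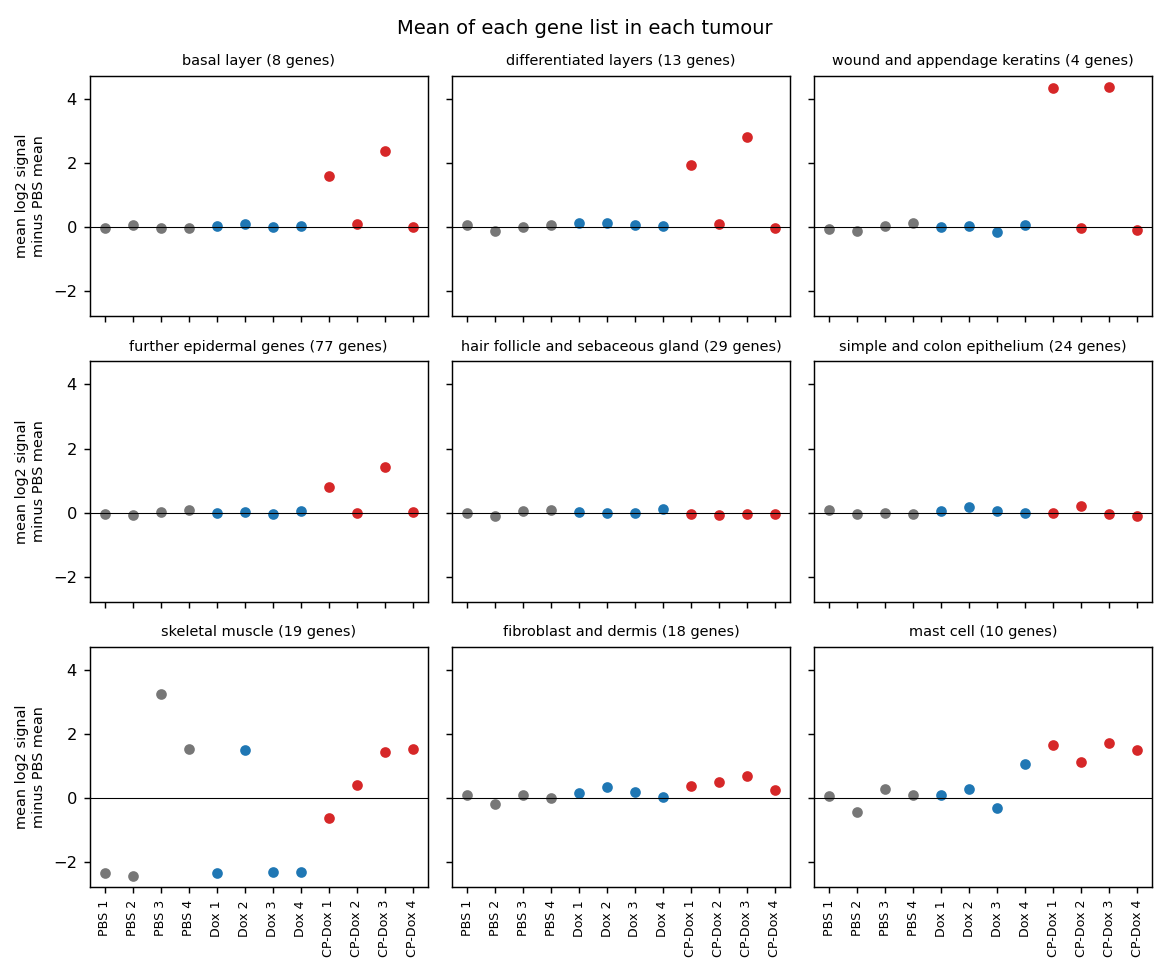
Mean log2 signal of 9 gene lists, as the difference from the PBS mean (vertical axis), in each of the 12 tumours, coloured by group. The basal, differentiated, wound keratin and further epidermal lists are high in CP-Dox replicates 1 and 3 alone, the hair follicle list stays near 0 in every tumour, and the muscle list varies in all groups.

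Replicate 3 was above replicate 1 for 31 of the 36 genes, and for 18 of the 20 genes high in both. The median difference between them was 2.20 for the suprabasal genes, 1.60 for the basal keratins with Trp63, 0.68 for the junction genes and 0.48 for the cornified envelope genes. For the 4 wound keratins it was 0.20, with Krt16 at -0.91 and Krt17 at 0.74. The 5 genes with the higher signal in replicate 1 were Krt16 (by 0.91), Sprr1b (by 1.07), Aqp3 (by 0.26), Itga6 (by 0.72) and Dsc2 (by 0.47). These differences are between 2 single tumours and have no replicate check, and the share of all genes higher in replicate 3 was not computed.

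**Figure D4:**
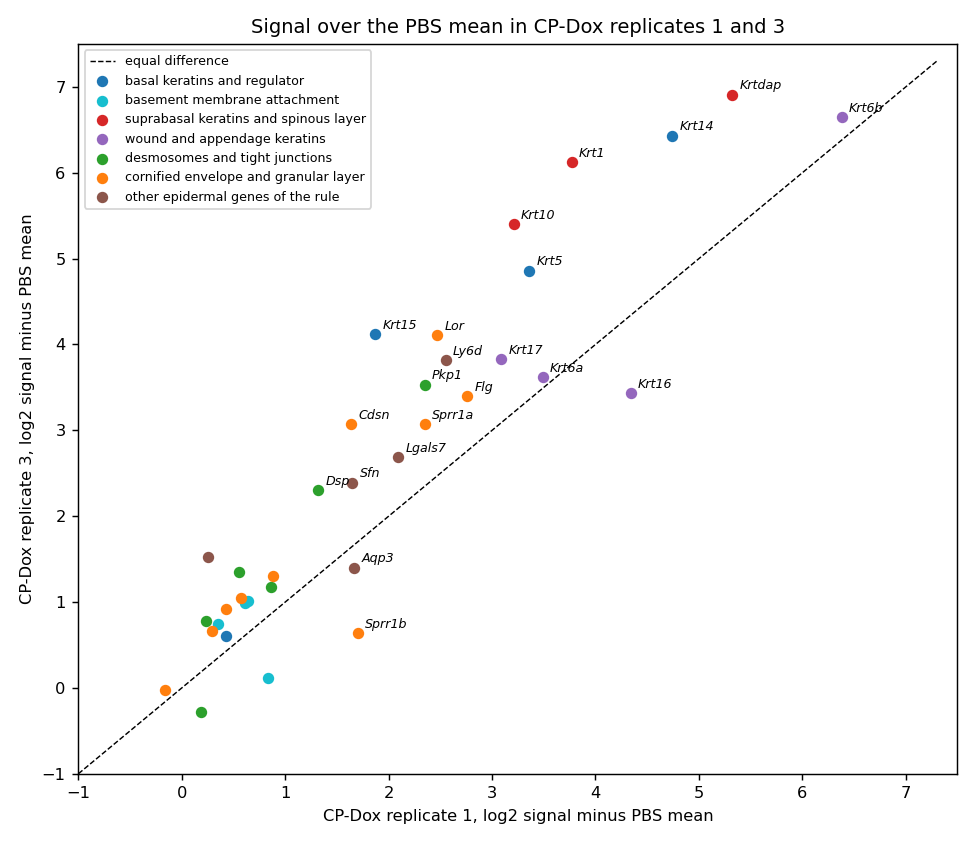
Difference from the PBS mean (log2) of each epidermal gene in CP-Dox replicate 3, on the vertical axis, against CP-Dox replicate 1, on the horizontal axis, coloured by role, with the line of equal difference. Most genes lie above the line, Krt1, Krt10 and Krt15 among the farthest from it, and Krt16 and Sprr1b lie below it.

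Over the 12 tumours the genes went up and down together in so far as those 2 tumours did. On the kept probe sets, the Pearson correlation of each gene with the mean of the others reached 0.998 for Krt14. It was lowest for Tgm3 (-0.288), Dsc2 (-0.108) and Itga6 (0.291). Tgm1 (0.51) and Cldn1 (0.59) were also loosely tied. With 10 tumours at one level, these correlations describe 2 arrays and carry no test.

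Whether CP-Dox tumours differed from PBS tumours as a group was then asked with limma over all 12 arrays. Only 1 of the 36 genes, Cldn1, was called higher in CP-Dox than in PBS tumours at an adjusted p under 0.05, and none was called lower, while 2.35% of all genes were called higher and 3.23% lower. The median difference over the 36 genes was 0.96, against -0.04 over all genes. Of the 36 differences 34 were positive, against 5468 of 12393 over all genes. At an unadjusted p under 0.05, 20 genes were higher, against 10.2% of all genes. In the CP-Dox group the spread of these genes followed the 2 high tumours: for Krt14 the SD was 3.25 with CP-Dox, 0.20 with PBS and 0.05 with Dox, and the CP-Dox minus PBS difference was 2.84 ± 1.17 (SE, n = 4 per group, 95% interval 0.27 to 5.41, adjusted p = 0.174). Krt1 gave 2.47 ± 1.09 (adjusted p = 0.199), Krt5 2.08 ± 0.88 (0.182), Krtdap 3.02 ± 1.32 (0.193), Krt6b 3.23 ± 1.37 (0.184) and Lor 1.52 ± 0.79 (0.263), so none of these large differences passed the test.

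Cldn1, a claudin of tight junctions that seals the granular layer and is also made by other epithelia, behaved unlike the keratins. It read 8.07, 7.60, 7.87 and 7.89 with PBS, 8.60, 8.53, 8.52 and 7.61 with Dox, and 8.72, 8.64, 9.02 and 8.56 with CP-Dox. All 4 CP-Dox tumours were above all PBS tumours, the 2 without keratin signal included, and the Dox tumours overlapped both. The rise was 0.88 ± 0.21 (SE, limma, 95% interval 0.43 to 1.33, 1.84-fold, adjusted p = 0.0325). The call was lost when single tumours were left out, with adjusted p of 0.0833, 0.105 and 0.0525 for CP-Dox replicates 1, 3 and 4, and of 0.0717, 0.0849 and 0.0611 for PBS replicates 2, 3 and 4. Without CP-Dox replicates 1 and 3 together the difference was 0.74 (adjusted p = 0.286). The other 3 Cldn1 probe sets gave CP-Dox minus PBS differences of -0.10, 0.21 and 0.57.

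Among the other genes, Ppl, periplakin, was the only one besides Cldn1 whose CP-Dox tumours all lay above the PBS tumours, a separation that 4.31% of all genes showed. It read 8.45, 8.26, 8.12 and 8.36 with PBS, 8.84, 9.08, 8.42 and 7.79 with Dox, and 9.18, 8.72, 9.60 and 8.56 with CP-Dox, a difference of 0.72 ± 0.28 that did not pass (limma, adjusted p = 0.148). Tgm1 came next to Cldn1 in the test, at 0.67 ± 0.19 (adjusted p = 0.0580), followed by Itgb4 at 0.56 ± 0.20 (adjusted p = 0.116), Evpl at 0.55 ± 0.20 (adjusted p = 0.128) and Lgals7 at 1.45 ± 0.54 (adjusted p = 0.140).

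The count of called genes turned on single tumours. Leaving out CP-Dox replicate 2, which has no keratin signal, gave 16 called genes, and 0 were left when the tumour omitted was CP-Dox replicate 1, CP-Dox replicate 3 or any of PBS replicates 2, 3 and 4. Leaving out CP-Dox replicate 4 gave 2, Evpl and Lgals7. The share of all genes called with each tumour left out is not given here, so these counts describe the 36 genes only. Without CP-Dox replicates 1 and 3 together the median difference of the 36 genes was -0.01 and none was called.

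Free doxorubicin was compared with PBS in the same fit. No gene of the 36, and 0% of all genes, was called between Dox and PBS by limma. The median difference of the 36 genes was 0.06, against 0.00 over all genes, and 1 of the 36, Cldn1, had an unadjusted p under 0.05, against 4.5% of all genes. Cldn1 was at 0.46 ± 0.21 (limma, adjusted p = 0.995), with 3 of 4 Dox tumours above the PBS range and Dox replicate 4 at 7.61. For Ivl the difference was 0.24 ± 0.13, with an interval from -0.05 to 0.53, which leaves a small difference undetectable with 4 arrays a group.

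In CP-Dox against Dox, none of the 36 genes was called by limma, where 0.226% of all genes were. The CP-Dox tumours are those of the comparison with PBS, so the values are given side by side and are no second line of evidence. The median was 0.91, against -0.03 over all genes, and 15 genes were higher at an unadjusted p under 0.05, against 6.67% of all genes. Krt14 stood at 2.76 ± 1.17 (adjusted p = 0.285), Tgm1 at 0.56 ± 0.19 (adjusted p = 0.200) and Itgb4 at 0.69 ± 0.20 (adjusted p = 0.151). Itgb4 was the only gene of the 36 with every CP-Dox tumour above every Dox tumour, as 3.29% of all genes were. Tgm3 had every CP-Dox tumour below every Dox tumour, at -0.14 ± 0.09 (adjusted p = 0.472), as 6.34% of all genes did.

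Probe sets mattered for some of these genes. The 36 genes were read by 54 probe sets, and 10 genes had more than 1. When each gene was read by its probe set of largest variance, 21 of the 36 genes (58.3%) were at least 1 above the highest PBS tumour in both CP-Dox replicates 1 and 3, against 1.61% of all genes. Krt14 had a further probe set at 4.30 and 6.10 over the PBS mean in the 2 tumours, and another at -0.21 and -0.73. Lor had 1 at 3.59 and 5.82 and 1 at 0.02 and 0.20. The further probe sets of Aqp3 both gave 2.45 in replicate 1, with 2.32 and 2.43 in replicate 3, more than its kept probe set.

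**Figure D5:**
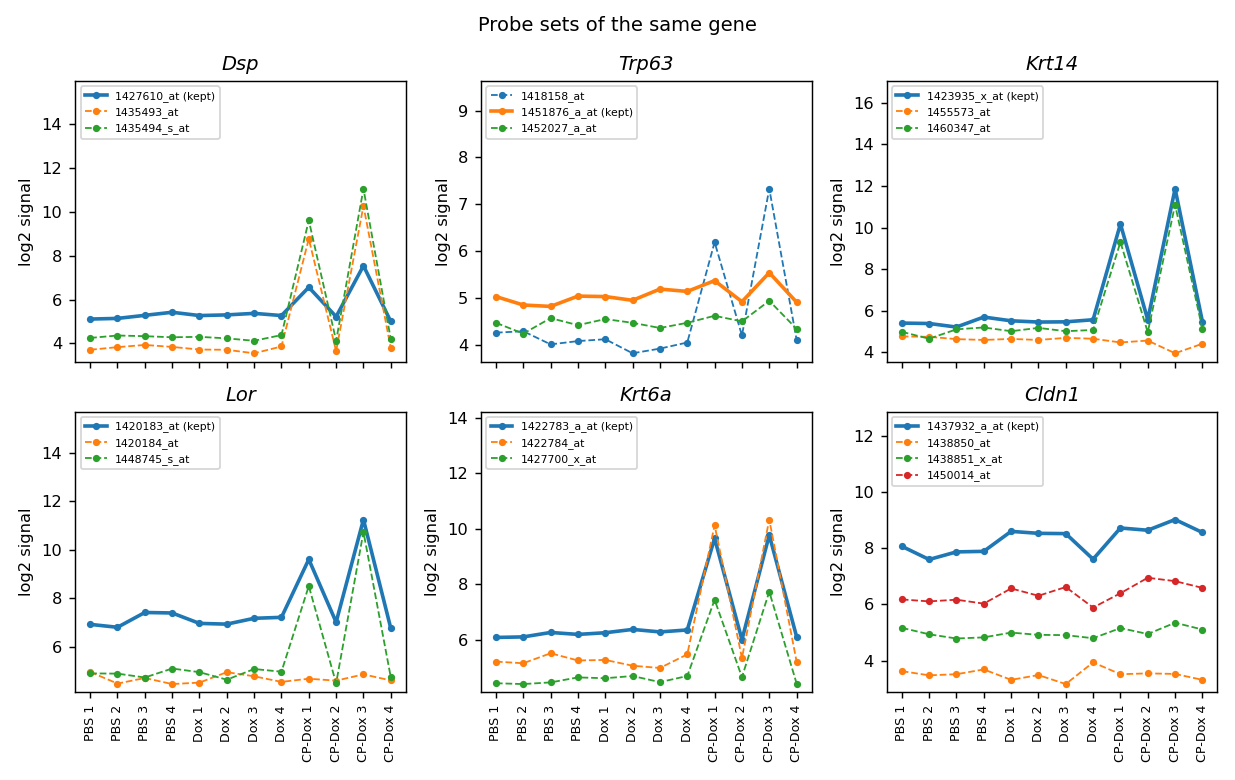
Log2 signal (vertical axis) of every probe set of Dsp, Trp63, Krt14, Lor, Krt6a and Cldn1 in each of the 12 tumours, the kept probe set drawn as the thick line. For Dsp and Trp63 another probe set is higher in CP-Dox replicates 1 and 3 than the kept one, and Krt14 and Lor each have 1 probe set that is not raised there.

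Of the other genes of the epidermis, listed by name and not among the 36, a minority were high in the same 2 tumours. Their median was 0.37 over the PBS mean in CP-Dox replicate 1 and 0.82 in replicate 3. Of 77 such genes, 22 in CP-Dox replicate 1, 30 in replicate 3, 2 in replicate 4 and 0 in replicate 2 were at least 1 above the highest PBS tumour, against 1.92%, 2.76%, 1.89% and 0.686% of all genes, and their mean was 0.81 and 1.42 over the PBS mean in replicates 1 and 3. By role, those in replicates 1 and 3 were 15 and 20 of 35 barrier and cornification genes, 5 and 7 of 23 structural genes, and 2 and 3 of 19 transcription factors. Perp, a desmosomal membrane protein, read 4.63 to 4.87 with PBS and 9.66 and 11.29 in the 2 tumours. Dmkn, a secreted protein of differentiated keratinocytes, read 5.72 to 6.12 with PBS and 10.16, 4.19, 11.67 and 7.59 with CP-Dox, so replicate 4 also lay above the PBS tumours. The hemidesmosomal collagen gene Col17a1 read 4.21 to 4.27 with PBS and 6.33 and 7.90 in replicates 1 and 3.

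In the group test between CP-Dox and PBS, 2.35% of all genes were called higher and 3.23% lower. Of the 77 genes 1 was called, the adherens junction cadherin Cdh1. It ran from 5.27 to 5.77 with PBS and read 7.03, 5.98, 7.88 and 6.29 with CP-Dox, a rise of 1.25 ± 0.33 (SE, limma, adjusted p = 0.0483), with no CP-Dox tumour inside the PBS range. That call was lost without either of CP-Dox replicates 1 and 3, and also without CP-Dox replicate 4 or any single PBS tumour. The integrin chain gene Itga3 was lower, at -0.77 ± 0.21, and did not pass (limma, adjusted p = 0.0590). The barrier genes with the lowest p were Aldh3a1, an aldehyde dehydrogenase, at 1.83 ± 0.58 (limma, adjusted p = 0.0901), the kallikrein Klk8 at 0.91 ± 0.32 (adjusted p = 0.116) and Rptn, repetin, at -0.19 ± 0.07 (adjusted p = 0.135). Of the gap junction genes, Gjb5 came closest, at 0.92 ± 0.35 (adjusted p = 0.144), and of the transcription factor list Fgfbp1, a secreted growth factor carrier grouped with it, at 0.82 ± 0.37 (0.210), Grhl1 at 0.79 ± 0.36 (0.214) and the splicing regulator Esrp1 at 0.98 ± 0.50 (0.257). Each of these 4 was highest in CP-Dox replicates 1 and 3. The median of the 77 genes was 0.26 in CP-Dox against PBS and 0.02 in Dox against PBS, where none was called.

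The 15 genes outside the 36 with the profile closest to their mean over the 12 arrays were, in order of Pearson correlation, Calm4 (0.999), Elovl4 and Perp (both 0.998), Defb6 and Lce1a1 (both 0.996), Klk7 and Fxyd3 (both 0.995), Trim29 and Pof1b (both 0.994), then Rdh9, Asprv1, Lce1f, Krt79, Serpinb5 and Klk6, the last 3 at 0.991. These values rest on the same 2 arrays and have no p. Calm4, a calmodulin-like protein of skin, read 5.26 to 5.41 with PBS and 9.74, 5.47, 11.15 and 5.26 with CP-Dox. Lce1a1, a late cornified envelope gene, read 8.57 and 10.16 in the 2 tumours and 5.72 to 6.00 with PBS.

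As groups, the genes listed for the other skin structures did not show the pattern. Krt15 and the wound keratins, which hair follicles also make, were counted among the 36. The hair follicle list therefore does not cover all genes of the follicle. The mean of 29 hair follicle and sebaceous gland genes was -0.04, -0.08, -0.03 and -0.04 over the PBS mean in CP-Dox replicates 1 to 4. Of the 29, 1 was at least 1 above the highest PBS tumour in replicate 1 and 2 in replicate 3. Elovl3, a fatty acid elongase of sebaceous glands, passed in both, at 7.07 and 7.86. Dgat2 passed in replicate 3 alone, reading 6.41 to 6.58 with PBS and 7.25, 6.44, 7.75 and 7.17 with CP-Dox. The lowest p in the group test belonged to genes that were lower with CP-Dox, Krtap3-1 at -0.36 (limma, adjusted p = 0.0559), Krt33a at -0.32 (0.0632) and Gprc5d at -0.23 (0.142), and none of the 29 was called. Of these 29 genes 25 were among the dimmest 40% of all genes on the array, so a small amount of their RNA might not register. The 36 epidermal genes themselves included 28 in that dimmest share, and no filter on low values was applied to them. The 10 genes of melanocytes, Langerhans cells and Merkel cells averaged 0.16 and 0.12 in replicates 1 and 3, and 0.27 in replicate 2, with none called. Those with the lowest p were Sox10 at -0.25 (limma, adjusted p = 0.203), Tyr at -0.24 (0.278) and Cd207 at 0.36 (0.289). Of the 10 genes 9 were among the dimmest 40%, so the same limit holds for them. The list also holds Epcam, whose values are given below.

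As a group, the simple and colon epithelium genes did not follow the keratins of skin either. Their mean over 24 genes was 0.00, 0.21, -0.04 and -0.12 in CP-Dox replicates 1 to 4. Epcam, an adhesion protein of simple epithelia and also of Langerhans cells, was an exception, at 5.64 to 6.25 with PBS and 6.99, 6.33, 7.87 and 5.29 with CP-Dox. Krt18 ran from 7.32 to 8.75 with PBS and read 6.88, 10.33, 6.07 and 5.74 with CP-Dox. It was highest in replicate 2 and lowest in replicate 4, the 2 tumours where the epidermal genes were at the PBS level. In replicates 1, 3 and 4 Krt18 lay below every PBS tumour. Krt8 ran from 9.47 to 11.28 with PBS and read 9.97, 12.05, 9.17 and 9.21 with CP-Dox. None of the 24 was called, the lowest p being those of Lgals3 at 0.24 (limma, adjusted p = 0.0590), Cdhr5 at -0.22 (0.122) and Car1 at -0.25 (0.176). Of the 24 genes 19 were in the dimmest 40% of the array, the colon markers Cdx1, Cdx2, Vil1 and Cdh17 included, while Krt8 and Krt18 were not.

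Genes of other tissue that a tumour piece from under the skin can hold varied as well. Skeletal muscle genes, 19 in the list, averaged -0.61, 0.42, 1.43 and 1.54 over the PBS mean in CP-Dox replicates 1 to 4, -2.33, -2.44, 3.25 and 1.53 in PBS and -2.33, 1.49, -2.29 and -2.29 in Dox tumours. Muscle signal was thus present in tumours of every group. The PBS mean lies between PBS tumours with and without it, so a negative value does not mean that it was absent. PBS replicates 1 and 2 and Dox replicates 1, 3 and 4 averaged -2.29 or lower, and all 4 CP-Dox tumours lay above that. Both tumours with epidermal signal thus stood above the lowest muscle level, as did some tumours without epidermal signal. No gene of the list was called, Myh1 (adjusted p = 0.287), Actn2 (0.420) and Acta1 (0.460) having the lowest p by limma. Fibroblast and dermis genes (18) averaged 0.38, 0.49, 0.70 and 0.26 in the CP-Dox tumours, with Dcn at 0.52 and Thy1 at 0.74 called higher than in PBS tumours and Postn at 1.43 not (limma, adjusted p = 0.0198, 0.0460 and 0.0731). Adipocyte genes (10) averaged 0.48, 0.55, 1.02 and 0.79, with Cd36 at 1.76, Lipe at 0.81 and Lpl at 1.67 called higher (limma, adjusted p = 0.0137, 0.0238 and 0.0404). Mast cell genes (10) averaged 1.65, 1.13, 1.71 and 1.49, and 9 of the 10 were called higher in CP-Dox than in PBS tumours by limma, led by Hdc at 1.73, Kit at 1.36 and Tpsb2 at 2.04 and followed by Ms4a2, Tpsab1, Mcpt4, Cpa3, Cma1 and Fcer1a. The mean of the list was above that of every PBS tumour in all 4 CP-Dox tumours, those without epidermal signal included. Neutrophil genes (10) averaged 0.89, 0.13, 0.89 and 1.20, and 2 of them, S100a8 at 2.09 and Lcn2 at 2.40, were called higher (limma, adjusted p = 0.0354 and 0.0483), both of which wounded keratinocytes can also make, while Mmp8 at 1.40 was not (adjusted p = 0.0704). Of all genes, 2.35% were called higher in CP-Dox than in PBS tumours by limma. The part of these cell types in the epidermal signal was not tested.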

How the data were processed

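Total RNA of 12 tumours, 4 each with PBS, Dox and CP-Dox, was hybridised to Affymetrix mouse arrays per the labels' protocols. The authors deposited RMA signals on the log2 scale, and Partek is also named, per the submitters' processing notes; versions, scan batches and the array's genome build are not given in the sources used here. They were used as deposited. Of 22690 probe sets, 64 are controls, 691 carry several gene symbols and 1555 none, which left 20380 and, with the probe set of highest mean per gene, 12393 genes. Groups were compared with limma 3.58.1 (lmFit and eBayes, two-sided) in R 4.3.3 on all 12 arrays, with Benjamini-Hochberg adjustment over all genes and a threshold of 0.05. The scripts were tested on simulated data. The number of arrays limits the precision.

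Values in every tumour were given for a set list of the 36 genes, for any of them past the threshold and for Ppl. For Evpl the PBS range and the CP-Dox values were given. Other lists were represented by the 3 genes with the lowest p and those past the threshold. A few more were chosen after their values were seen (Perp, Dmkn, Col17a1, Elovl3, Dgat2, Epcam, Krt8 and Krt18). The genes and lists were chosen with earlier results of these data known. Alternatives were another quantile normalization, median centring, other probe set rules, leaving out the dimmest 40% of genes, other variance models, array weights, the compared groups alone, a replicate block and leaving out tumours.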

Additional observations from a re-analysis of the deposited data

Results flagged for a closer look

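A single tumour stood far from the other 3 of its group for 5 of the 108 sets formed by the 36 genes and 3 groups. Of these 5 sets 4 were in the Dox group and 1 in the PBS group. Chance gives about 1 in 20 when the sets are independent and each can be flagged. Neither holds for these genes, so the share cannot be set against chance. In the Dox group, replicate 4 was low for Itgb4, at 5.77 against 6.41 to 6.49, and for Cldn1, at 7.61 against 8.52 to 8.60, and high for Lgals7, at 9.08 against 8.23 to 8.33. The gap was 0.881, 0.916 and 0.884 of the group's range for these 3 genes. Dox replicate 3 was low for Tgm1, at 4.55 against 4.93 to 4.96 (0.938 of the range). PBS replicate 4 was high for Krt6b, at 5.33 against 4.94 to 4.99 (0.877 of the range). In the CP-Dox group no single tumour stood apart in this way for any of the 36 genes. Where replicates 1 and 3 are both high, neither is far from its nearest neighbour. The measure then cannot flag them, and its silence does not mean that the 4 tumours were alike.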

How the results depend on the processing

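Under the 19 alternatives the CP-Dox minus PBS difference of Cldn1 was positive in 18, with adjusted p from 0.0134 to 0.703, and was called in 11. The count of the 36 genes called in CP-Dox against PBS, 1 as reported, was 2 after another quantile normalization (Cldn1 and Tgm1), 0 with the probe set of lowest mean, 20 with array weights, 0 without CP-Dox replicates 1 and 3 together and 0 to 16 when 1 tumour was left out. In CP-Dox against Dox it was 19 with array weights and 0 to 5 when 1 tumour was left out. Of the 77 further genes, 1 was called as reported; 2 after quantile normalization or median centring, 3 with the replicate block, 26 with array weights, 0 with the probe set of largest variance or lowest mean, with trend and robust eBayes, with the compared groups alone or without CP-Dox replicates 1 and 3, and 0 to 18 when 1 tumour was left out. In CP-Dox against Dox it was 22 with array weights and 0 to 9 when 1 tumour was left out. The share of all genes called under each alternative is not given here. Whether these counts moved more than those of all genes therefore cannot be told. Array weights lower the weight of tumours that stand apart from their group. The cause of these changes was not tested.

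The median difference of the 36 genes was -0.01 over PBS and -0.04 over Dox for the CP-Dox group without CP-Dox replicates 1 and 3; leaving out 1 tumour gave 0.60 to 1.32 and 0.51 to 1.27, and 0.03 to 0.08 in Dox against PBS. In Dox against PBS it was 0.12 with the dimmest 40% of genes out, which leaves 8 of the 36. The mean over the 36 genes in CP-Dox replicate 1 was 1.86 with median centring, 2.16 with the probe set of largest variance and 1.70 with that of lowest mean, and in replicate 3 it was 2.50, 2.95 and 2.32.

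With the probe set of lowest mean, CP-Dox minus PBS was -0.34 for Krt14, -0.03 for Krt17 and -0.10 for Cldn1, Dox minus PBS was -0.10 for Cldn1 and CP-Dox minus Dox was -0.30 for Krt14. When 1 tumour was left out, Jup ran from -0.01 (without CP-Dox replicate 3) to 0.39 in CP-Dox minus PBS. Without CP-Dox replicates 1 and 3, CP-Dox minus PBS was -0.02 for Trp63 and Aqp3, -0.12 for Lamb3 and Jup, -0.01 for Krt1, -0.37 for Krt10, -0.07 for Krtdap, -0.10 for Krt6a, -0.05 for Krt6b, -0.03 for Krt16 and Krt17, -0.13 for Dsp and Flg, and -0.25 for Lor.

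The labels state no link between same-numbered tumours of different groups. Correlations of same-numbered tumours ran from 0.02 to 0.35 in CP-Dox against PBS and from -0.31 to 0.29 in Dox against PBS. In CP-Dox against Dox they ran from 0.02 to 0.51. In these 3 comparisons 2, 4 and 6 of 8 samples correlated best with their own number, most in CP-Dox against Dox. A factor shared by same-numbered tumours was not tested. With the replicate number as a block 1 of the 36 genes was called in CP-Dox against PBS, as without it. Scan batches were not used here, so a batch shared by CP-Dox replicates 1 and 3 was not tested.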
